A study of Homo sapiens with 8 samples.

Results

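The genes described here are those whose RNA differed in the same direction in both matched comparisons of 7 days with 3 days after chromium treatment, in a human lymphoblastoid cell line (B cells made to grow without limit by Epstein-Barr virus). Replicate 1 at 7 days was set against replicate 1 at 3 days, and replicate 2 against replicate 2. A gene was taken to have moved alike when its log2 CPM (read counts scaled to library size) differed by at least 0.5 in size, and by at least 2 counting standard errors, with the same sign in both pairs. This held for 26 of the 12536 genes tested, or 0.207%, out of 23710 gene symbols counted. Of these, 6 were higher at 7 days (0.0479%) and 20 were lower (0.16%). The matched differences themselves chose these 26 genes, so they are given as a description with no test, and the percentages are read as no more than the share that the limits left.

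All libraries came from a single cell line grown in RPMI medium, and the treated cultures received 5 µM hexavalent chromium for 24 h. The study covered untreated control cells, cells at 24 h, and cells labelled as 3 and 7 days post treatment, with 2 biological replicates in each of the 4 groups. Whether day 3 and day 7 are counted from the start or the end of the chromium treatment is not settled by the descriptions. The replicate numbers are not tied in the labels to a shared culture or day, and p-values measure only the spread between these libraries. No untreated culture of 3 or 7 days is among the samples analysed here, so time in culture and time since chromium cannot be told apart. As this is bulk RNA from a single line, fewer cells in a given state and less RNA per cell cannot be told apart either.

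Hexavalent chromium enters cells through anion transporters and is reduced inside them to trivalent chromium, a process that leaves DNA adducts, crosslinks and oxidised bases. Cells answer such damage through p53, DNA repair and metal and redox response genes, and surviving cells can resume division. The comparison of 7 with 3 days asks which transcripts differed between these late times, and not which still differed from untreated cells.

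Replicates 1 and 2 at 7 days held 9940751 and 9920202 reads in genes, against 10403981 and 11110830 at 3 days. All 10 B cell markers reached 10 CPM in at least 1 library, with a highest value of 1638 CPM. So did all 7 plasma cell markers, with a highest value of 5950 CPM. Summed, the plasma cell markers had 5475 and 9121 CPM at 7 days, against 5382 and 9994 CPM at 3 days. None of 10 T and NK cell markers did so (highest 3.20 CPM), and 1 of 8 myeloid markers did (13.8 CPM). The erythroid markers were at 0 in every library. Reads assigned to no feature made up 36.5% and 45.3% at 7 days and 39.4% and 46.1% at 3 days, so replicate 1 was below replicate 2 at both times.

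The 2 lower genes with the most counts, MTRNR2L8 and MTRNR2L6, are nuclear copies of the mitochondrial 16S ribosomal RNA gene MT-RNR2. The short frame below is the one that encodes humanin, a small peptide with cytoprotective activity, in MT-RNR2 and humanin-like peptides in its copies. It is shown because reads from near-identical copies may be shared between them. Letters in capitals are bases that differ from MT-RNR2, and the sequences are from GENCODE transcripts of GRCh38.
MTRNR2L8: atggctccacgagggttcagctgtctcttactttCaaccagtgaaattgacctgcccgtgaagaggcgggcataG
MTRNR2L6: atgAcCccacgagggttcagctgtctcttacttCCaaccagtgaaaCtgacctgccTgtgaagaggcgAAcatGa
MT-RNR2: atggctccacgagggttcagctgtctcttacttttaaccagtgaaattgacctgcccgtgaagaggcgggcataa
The MTRNR2L8 frame, on chromosome 11 at transcript bases 964 to 1038, differs from MT-RNR2 at 2 of 75 bases. The MTRNR2L6 frame, on chromosome 7 at transcript bases 960 to 1034, differs at 9. Over the aligned transcripts, MTRNR2L8 was 93.1% identical to MT-RNR2 over 1303 columns, and MTRNR2L6 was 85.3% identical over 1413 columns. The count tables had no entry for MT-RNR2, so how many of these reads came from the mitochondrial gene was not tested, and both genes are uncertain.

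MTRNR2L8 had 43.5 and 25.8 CPM at 7 days, against 66.3 and 46.9 CPM at 3 days. Both 7-day libraries lay below both 3-day libraries, and the matched log2 differences were -0.61 in replicate 1 and -0.86 in replicate 2. MTRNR2L6 had 14.4 and 4.82 CPM at 7 days, against 21.4 and 12.1 CPM at 3 days. Here replicate 1 at 7 days was above replicate 2 at 3 days, so the groups overlapped, and the matched differences were -0.57 and -1.30. MTRNR2L8 had 37.0 and 26.7 CPM at 24 h and 37.3 and 30.6 CPM in control cells, so that replicate 1 at 3 days was the highest of the 8 libraries and replicate 2 at 7 days the lowest, and both 3-day libraries were above all 4 early ones. MTRNR2L6 had 7.24 and 6.70 CPM at 24 h and 6.85 and 4.81 CPM in control cells, and its 3 highest libraries were both at 3 days and replicate 1 at 7 days.

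The other copies were mixed. MTRNR2L2, the most abundant, had 168 and 78.8 CPM at 7 days, against 177 and 120 CPM at 3 days, which is a lower value in both pairs but by little in replicate 1. MTRNR2L3 had 4.31 and 1.81 CPM at 7 days, against 3.80 and 1.61 CPM at 3 days, slightly higher in both. MTRNR2L1 and MTRNR2L10 were lower in both pairs, but on 2 to 8 reads at 7 days, against 8 to 23 reads at 3 days.

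**Figure D1:**
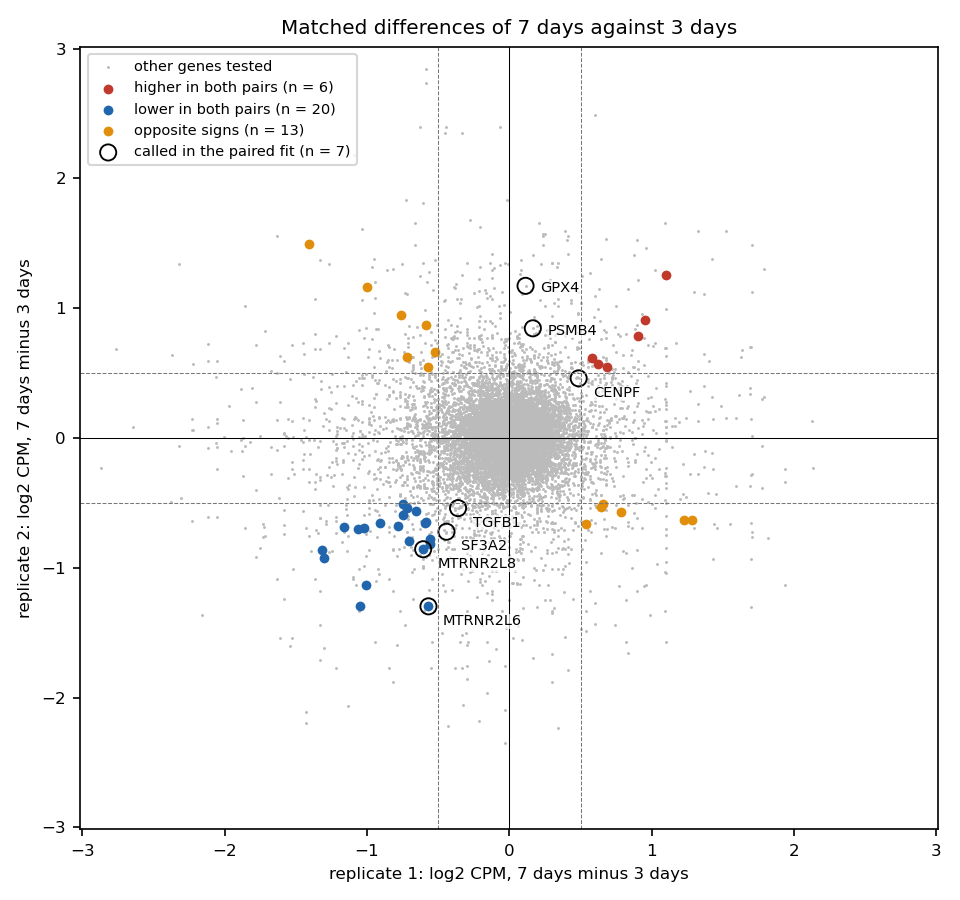
Each point is 1 of 12536 genes, placed by its log2 CPM difference of 7 days minus 3 days in replicate 1 (x axis) and in replicate 2 (y axis). Dashed lines mark a difference of 0.5 in size. Red points are the 6 genes higher in both pairs, blue points the 20 lower in both and orange points the 13 past the limits with opposite signs. Rings mark the 7 genes called by the paired edgeR fit. The cloud is round rather than stretched along the diagonal.

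Most of the transcriptome did not differ alike in the pairs. Across genes the 2 sets of matched differences had a Pearson r of 0.04 (12536 genes, which are not independent replicates), and of 0.08 among the 4458 genes averaging 50 CPM or more. The sign was the same in both pairs for 50.6% of genes, and 80.8% of genes differed by less than 0.5 in both. In replicate 1 alone 493 genes passed the limits, and in replicate 2 alone 424 did. Beside the 26 genes that moved alike, 13 genes (0.104%) passed the limits with opposite signs, 6 of them higher in replicate 1 and 7 higher in replicate 2. TMEM38B, which encodes a cation channel of the endoplasmic reticulum and was picked from these 13 after its values were seen as the most abundant, had 33.0 and 25.4 CPM at 7 days, against 22.7 and 40.3 CPM at 3 days.

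Replicates of the same time differed more than the times did. The median size of the log2 difference between 7 and 3 days was 0.158 in replicate 1 and 0.150 in replicate 2. Between replicate 1 and replicate 2 it was 0.469 at 7 days and 0.487 at 3 days. The replicate 1 minus replicate 2 differences at 7 days and at 3 days had a Pearson r of 0.81 across genes, which is the offset that matching by replicate number removes.

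Among the 6 genes higher at 7 days, 2 encode enzymes or their subunits. PSEN2 (presenilin 2), a catalytic subunit of the gamma-secretase protease, had 8.61 and 10.2 CPM at 7 days, against 4.52 and 5.80 CPM at 3 days. All 4 of its early libraries were higher still, with 10.8 and 11.2 CPM at 24 h and 11.8 and 11.1 CPM in control cells. MTHFD2L, a mitochondrial folate dehydrogenase, had 4.97 and 4.52 CPM at 7 days, against 2.47 and 2.32 CPM at 3 days. Its early libraries lay between and around these, from 2.99 CPM in a control library to 5.30 CPM in a 24 h library. For both genes the 7-day and 3-day libraries did not overlap, and the matched differences were 0.90 and 0.79 for PSEN2 and 0.96 and 0.91 for MTHFD2L.

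The other higher genes have roles in survival, adhesion, transcription and cilia. FAIM, the Fas apoptosis inhibitory molecule, had 6.85 and 9.15 CPM at 7 days, against 4.52 and 5.89 CPM at 3 days. IGSF3, a membrane protein of the immunoglobulin superfamily, had 8.50 and 9.35 CPM at 7 days, against 5.45 and 6.25 CPM at 3 days. Both were separated between the times, but IGSF3 was 10.7 CPM or more in each of the 4 early libraries and so remained below them at 7 days. GABPB2, a beta subunit of the transcription factor GABP, had 6.07 and 8.94 CPM at 7 days, against 3.70 and 6.07 CPM at 3 days, where the nearest values of the 2 times were almost equal. MNS1, a protein of motile cilia and sperm flagella, had the widest differences (1.10 and 1.25) on the fewest reads. It averaged 1.76 CPM, with 22 and 26 reads at 7 days, against 10 and 11 reads at 3 days, and falls below the 2 CPM asked of other named genes.

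**Figure D2:**
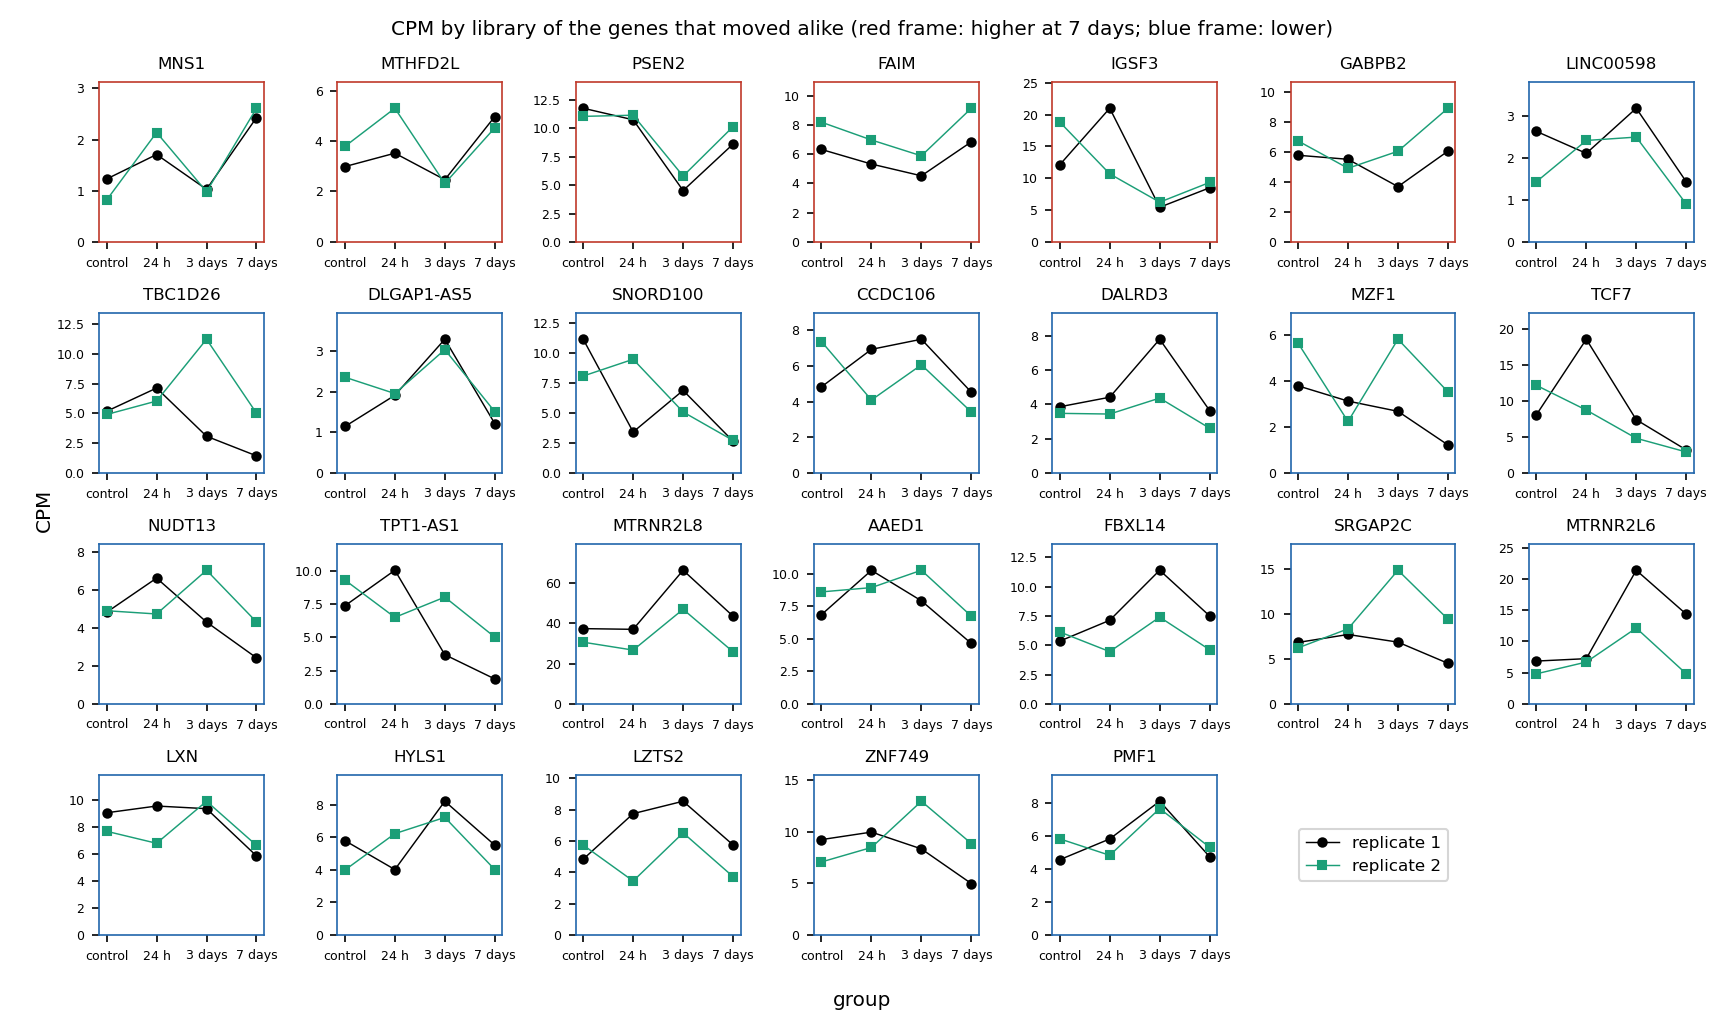
CPM (y axis, from 0) of each of the 26 genes that moved alike, by group (x axis, in order of time), with black circles for replicate 1 and green squares for replicate 2. Red frames are genes higher at 7 days than at 3 days and blue frames genes lower. In TBC1D26, TPT1-AS1 and SRGAP2C the line of replicate 2 runs well above that of replicate 1 at 3 and 7 days, although both lines fall between these times.

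Of the 20 lower genes, 3 are transcription factors or zinc finger genes. TCF7 (TCF-1), a transcription factor of Wnt signalling best known from T cell development, had 3.20 and 2.91 CPM at 7 days, against 7.40 and 4.82 CPM at 3 days. Its early values were higher, with 18.6 and 8.74 CPM at 24 h and 8.08 and 12.2 CPM in control cells, so both 7-day libraries were the lowest of the 8. MZF1, a myeloid zinc finger factor, had 1.21 and 3.52 CPM at 7 days, against 2.67 and 5.80 CPM at 3 days, and its groups overlapped because replicate 2 was higher at both times. ZNF749, a zinc finger gene, had 4.97 and 8.84 CPM at 7 days, against 8.33 and 12.9 CPM at 3 days, and overlapped in the same way.

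Another set of lower genes encodes enzymes or proteins that act on proteins and RNA. DALRD3, needed for methylation of some arginine tRNAs, had 3.64 and 2.61 CPM at 7 days, against 7.81 and 4.37 CPM at 3 days, with no overlap. AAED1, a peroxiredoxin-like gene, had 4.64 and 6.73 CPM at 7 days, against 7.91 and 10.3 CPM at 3 days, also with no overlap. NUDT13, a nudix hydrolase, had 2.43 and 4.32 CPM at 7 days, against 4.32 and 7.05 CPM at 3 days, where the groups met. FBXL14, the substrate receptor of a ubiquitin ligase, had 7.51 and 4.62 CPM at 7 days, against 11.4 and 7.41 CPM at 3 days, with a slight overlap. LXN (latexin), a carboxypeptidase inhibitor, had 5.85 and 6.63 CPM at 7 days, against 9.35 and 9.90 CPM at 3 days. LXN values lay close together within each time.

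The centriole, kinetochore and coiled-coil genes among the lower members were HYLS1, PMF1, LZTS2 and CCDC106. HYLS1, a centriole protein needed for cilia, had 5.52 and 4.02 CPM at 7 days, against 8.22 and 7.23 CPM at 3 days. PMF1, a subunit of the kinetochore MIS12 complex, had 4.75 and 5.33 CPM at 7 days, against 8.12 and 7.67 CPM at 3 days. Neither gene overlapped between the times, and the early libraries of PMF1 (4.57 to 5.83 CPM) were near its 7-day values. LZTS2, a leucine zipper protein that restrains nuclear beta-catenin, had 5.74 and 3.72 CPM at 7 days, against 8.53 and 6.51 CPM at 3 days. CCDC106, a coiled-coil protein, had 4.53 and 3.42 CPM at 7 days, against 7.50 and 6.07 CPM at 3 days. For LZTS2 and CCDC106, too, both 7-day libraries were below both 3-day libraries.

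The lower members that encode no protein, or have a near-identical copy, are uncertain in these counts. SNORD100, a small nucleolar RNA inside an intron of the ribosomal protein gene RPS12, had 2.65 and 2.71 CPM at 7 days, against 6.89 and 5.09 CPM at 3 days. It is 76 bases long, shorter than a read, while its host RPS12 differed by -0.04 and 0.39 on the log2 scale in the pairs. LINC00598, a long non-coding RNA, had 1.44 and 0.905 CPM at 7 days, against 3.19 and 2.50 CPM at 3 days, on 9 to 31 reads. DLGAP1-AS5, antisense to DLGAP1, had 1.21 and 1.51 CPM at 7 days, against 3.29 and 3.03 CPM at 3 days. TPT1-AS1, antisense to the translationally controlled tumour protein gene TPT1, had 1.88 and 5.03 CPM at 7 days, against 3.70 and 8.03 CPM at 3 days, and its groups overlapped. Without a stated strand setting, reads of an antisense gene and of its partner cannot be told apart.

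SRGAP2C, a human-specific partial copy of SRGAP2, had 4.53 and 9.45 CPM at 7 days, against 6.89 and 14.9 CPM at 3 days. Its parent SRGAP2 differed by -0.10 and -0.14 on the log2 scale, and reads of the copies may be exchanged between them. TBC1D26, a gene with a Rab GTPase-activating TBC domain, had 1.44 and 5.03 CPM at 7 days, against 3.08 and 11.2 CPM at 3 days. In both genes replicate 2 was the higher at each time by more than the times differed, so the groups overlapped.

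The 26 genes were of low abundance. Their median level was 6.16 CPM over the 4 libraries, against 25.6 CPM for all genes tested, and 2 of 26 reached 10 CPM, against 67.1% of all genes. The read counts behind them had a median of 54 for the higher and 53 for the lower genes. Both limits of the rule can act on this, since counting error is wider at low counts and the counting error limit can remove the lowest genes. Their part was not tested. In 18 of 26 the 7-day and 3-day libraries did not overlap (11.6% of all genes tested), which the rule itself favours. Just inside the limit were GABPB2 (0.69 and 0.55) and IGSF3 (0.62 and 0.57) among the higher and PMF1 (-0.75 and -0.51) and ZNF749 (-0.72 and -0.54) among the lower. Just outside were NRIP1 (0.47 and 0.70) and CENPF (0.49 and 0.46), and SEPW1 (-0.52 and -0.47) and RELB (-0.62 and -0.46).

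What the rule did not use was genome position, gene class, transcript length and base composition. The members lay on 15 chromosomes, with 5 on chromosome 1 and 3 each on chromosomes 3 and 19. In GENCODE 22 of 26 are protein coding (94.5% of the matched genes tested), and 17 of 26 overlap a gene on the opposite strand (57.4% of the matched genes). These include TCF7 with SKP1, DALRD3 with WDR6, LXN with GFM1, HYLS1 with PUS3 and NUDT13 with ECD, and among the genes called in the fit described next SF3A2 with PLEKHJ1 and TGFB1 with CCDC97, all of which are uncertain for the same want of a strand setting. On the same strand 9 of 26 members overlap another gene (35.7% of the matched genes). PMF1 with PMF1-BGLAP and CCDC106 with ZNF580 are among them. A strand setting would not separate such reads. Reads labelled ambiguous were left out of the gene counts, but the counting rule is not given, so these genes are uncertain too. The median transcript length was 3171 bases for the 6 higher and 2590.5 bases for the 20 lower genes, against 3658 bases for all genes. Median GC was 46.0% and 48.8%, against 47.3% for all genes. Across all genes the matched difference ran with GC in replicate 1 (Spearman correlation -0.33 across genes) and hardly in replicate 2 (0.06), so the pairs did not share that trend. Its part in the members was not tested beyond removing it, which left 5 higher and 15 lower genes.

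A paired quasi-likelihood fit (edgeR, replicate number as a block, the 4 libraries of 7 and 3 days) called 7 of 12536 genes at an adjusted p under 0.05 (Benjamini-Hochberg), which is 0.0558%. Of these 3 rose (0.0239%) and 4 fell (0.0319%). At an unadjusted p under 0.05 there were 719 genes, or 5.74%, where 626.8 would be reached if no gene differed. The first 20 higher genes by p had a median transcript length of 5756.5 bases and a median GC of 44.0%. The first 20 lower genes had 2454 bases and 54.5%, against 3658 bases and 47.3% for all genes. The part of length and GC in this ranking was not tested beyond removing the trend. The fit left 1 residual degree of freedom, and edgeR pooled the spread over all genes (common biological coefficient of variation 0.0709), so a gene noisier than its peers is judged by their spread. The matching was itself proposed from these libraries, and the p-values describe the fit. With no replicate block the fit called 0 genes (12 at an unadjusted p under 0.05), and DESeq2 with the block called 0 (120 at an unadjusted p under 0.05). A fit of all 8 libraries with a block for the late ones called 0 (142 at an unadjusted p under 0.05). The counts of 12, 120 and 142 are far below the 626.8 that would be reached if no gene differed. The p-values of these fits thus ran high, and their 0 calls cannot decide on the 7 calls either way. Leaving out a late library leaves a single matched pair for 7 against 3 days. Such fits cannot show whether the pairs agree.

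CENPF, a kinetochore protein that accumulates in G2 and mitosis, rose in both pairs, by a like amount with no trend removed. It had 268 and 289 CPM at 7 days, against 191 and 210 CPM at 3 days, with no overlap. The matched differences were 0.49 and 0.46, and the fitted log2 fold change was 0.47 ± 0.10 (SE, adjusted p = 0.0094 in the edgeR fit). It stays outside the 26 genes because both differences are just under 0.5. With the length and GC trend removed, the differences of CENPF were 0.27 in replicate 1 and 0.46 in replicate 2. The 24 h libraries had 182 and 163 CPM and the control libraries 156 and 229 CPM, so both 7-day libraries were above all 4 early ones, while the 3-day values lay between the controls.

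TGFB1, the cytokine TGF-beta 1, fell in both pairs. It had 105 and 96.0 CPM at 7 days, against 134 and 140 CPM at 3 days, with no overlap and matched differences of -0.36 and -0.54. With the length and GC trend removed, the differences of TGFB1 were -0.21 and -0.50. The fitted log2 fold change was -0.45 ± 0.11 (SE, adjusted p = 0.0416 in the edgeR fit). The call was lost with no filter on low counts (adjusted p = 0.104) and without the MTRNR2L genes (adjusted p = 0.0569), both in edgeR with the block. SF3A2, a splicing factor of the U2 small nuclear ribonucleoprotein, fell as well. It had 41.0 and 25.0 CPM at 7 days, against 55.7 and 41.4 CPM at 3 days, with matched differences of -0.44 and -0.72. Removing the same trend left -0.31 and -0.67 for SF3A2. Its fitted change was -0.58 ± 0.13 (SE, adjusted p = 0.0129 in the edgeR fit), and its groups did not overlap, although replicate 1 at 7 days lay just under replicate 2 at 3 days.

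GPX4 and PSMB4 were called mainly through replicate 2. GPX4, the glutathione peroxidase that reduces lipid peroxides in membranes, had 341 and 271 CPM at 7 days, against 315 and 120 CPM at 3 days. The matched differences were 0.11 in replicate 1 and 1.17 in replicate 2, with a fitted log2 fold change of 0.63 ± 0.10 (SE, adjusted p = 1.5e-05 in the edgeR fit). With robust empirical Bayes, which lets a gene keep a wider spread of its own, the call was lost (adjusted p = 0.316 in edgeR). PSMB4, a beta subunit of the proteasome core, had 259 and 171 CPM at 7 days, against 231 and 94.8 CPM at 3 days. Its matched differences were 0.17 and 0.85, with a fitted change of 0.49 ± 0.10 (SE, adjusted p = 0.00887 in the edgeR fit). In both genes replicate 1 at 3 days was above replicate 2 at 7 days, so the groups overlapped, and the differences of the pairs were far apart relative to their counting errors. These 2 genes passed the threshold of the paired fit without having moved alike.

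MTRNR2L8 and MTRNR2L6 were the only 2 of the 26 members among the 7 called genes. Their fitted log2 fold changes were -0.73 ± 0.12 and -0.88 ± 0.19 (SE). The fit uses the same differences that chose the members, so it gives them no separate support.

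**Figure D3:**
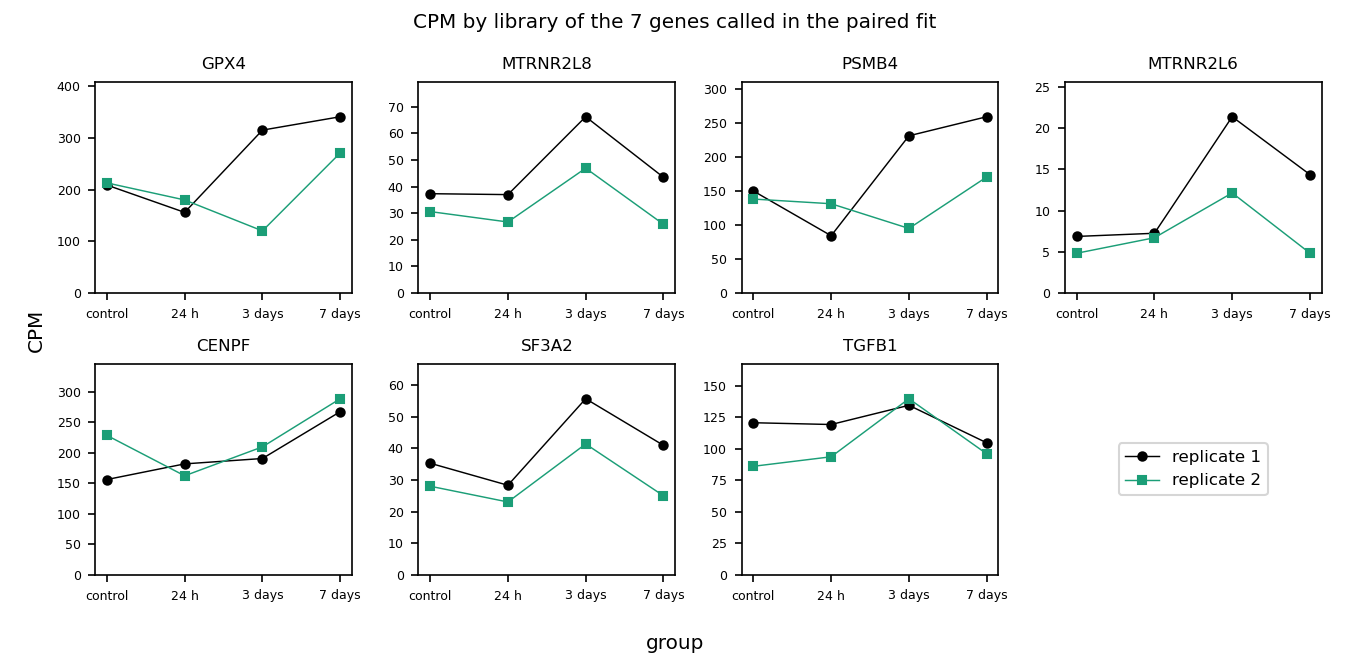
CPM (y axis, from 0) of the 7 genes called in the paired fit, by group (x axis, in order of time), with black circles for replicate 1 and green squares for replicate 2. CENPF, SF3A2 and MTRNR2L8 run nearly in parallel between 3 and 7 days, while the lines of TGFB1 both fall and cross. GPX4 and PSMB4 differ by 1.17 and 0.85 on the log2 scale in replicate 2 and by 0.11 and 0.17 in replicate 1.

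The 31 gene lists on chromium, stress, cell cycle and B cell biology held 0 of the 26 members among their 821 different tested genes, where the share over all genes was 0.207%. Their median differences ran from -0.08 to 0.17 in replicate 1 and from -0.13 to 0.19 in replicate 2. The medians over all genes were 0 and -0.00. No length and GC trend was removed from the list medians or list genes below. In replicate 1 the difference ran with GC (Spearman correlation -0.33 across all genes), and the part of this in the lists was not tested. The sign of the median was the same in both pairs for 16 lists (8 above 0 and 8 below) and opposite for 15. Across all genes 25.2% were above 0 in both pairs and 25.4% were below.

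Among lists of dividing and damaged cells, the 34 G2 and mitosis genes had medians of 0.04 and 0.12, with 16 above 0 in both pairs and 4 below. CENPF was the 1 called. MKI67, the proliferation marker Ki-67, had 660 and 594 CPM at 7 days, against 522 and 467 CPM at 3 days, and TOP2A, topoisomerase II alpha, had 732 and 823 CPM at 7 days, against 578 and 724 CPM at 3 days. MKI67 did not overlap between the times (unadjusted p = 0.000527, adjusted p = 0.231 in the edgeR fit) and did not pass. The 39 DNA replication genes had medians of 0.01 and 0.03, with none called. Of 34 double-strand break and crosslink repair genes none was called, and their medians were 0.11 and 0.05. BRCA2, a gene of homologous recombination, had 84.4 and 156 CPM at 7 days, against 66.7 and 129 CPM at 3 days, a difference of 0.34 and 0.27. The 34 p53 targets had medians of opposite sign, 0.05 and -0.12, with none called.

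Among lists of protein folding, turnover and synthesis, chaperones and tRNA synthetases had medians above 0 in both pairs, and proteasome and ribosomal protein genes had medians of opposite sign. The 19 heat shock chaperones had the highest median in replicate 1, 0.17, and 0.07 in replicate 2, with 12 above 0 in both pairs, 2 below and none called. HSPH1, an HSP110 chaperone, had 567 and 345 CPM at 7 days, against 444 and 315 CPM at 3 days. The 31 proteasome genes had medians of -0.01 and 0.10 with PSMB4 called, and the 20 aminoacyl-tRNA synthetases 0.03 and 0.11 with 13 above 0 in both pairs, 2 below and none called. The 62 cytosolic ribosomal protein genes had medians of -0.07 in replicate 1 and 0.19 in replicate 2, with none called. Their summed level was 53782 and 24620 CPM at 7 days, against 56487 and 23041 CPM at 3 days, so the replicates differed by much more than the times.

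Metabolic and metal lists were near 0 or below. The 38 hypoxia and glycolysis genes had medians of -0.07 in both pairs, the 32 genes of the ATF4 amino acid response -0.08 and -0.09, and the 28 immediate early genes -0.07 and -0.08, with none called in any of them. The glycolytic enzyme GAPDH had 7458 and 3837 CPM at 7 days, against 8341 and 4705 CPM at 3 days, and did not pass the test. The 11 metallothionein and metal response genes had medians of 0.01 and -0.10, and the 25 NRF2 antioxidant genes -0.02 and -0.01, with none called. FTL, the ferritin light chain, had 1879 and 616 CPM at 7 days, against 2150.2 and 791 CPM at 3 days, differences of -0.19 and -0.36 that did not pass the test.

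Immune lists showed no called gene. Medians were -0.02 and 0.03 for 27 NF-kB targets, 0.01 and 0.06 for 35 interferon-stimulated genes, -0.04 and 0.07 for 17 MHC class II genes and -0.02 and 0.01 for 22 genes of B cell receptor signalling. SAMD9L, an interferon-induced antiviral factor, had 163 and 381 CPM at 7 days, against 121 and 328 CPM at 3 days. BLNK, the adaptor that links the B cell receptor to its effectors, had 134 and 287 CPM at 7 days, against 175 and 326 CPM at 3 days. In both genes the replicates differed by more than the times.

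**Figure D4:**
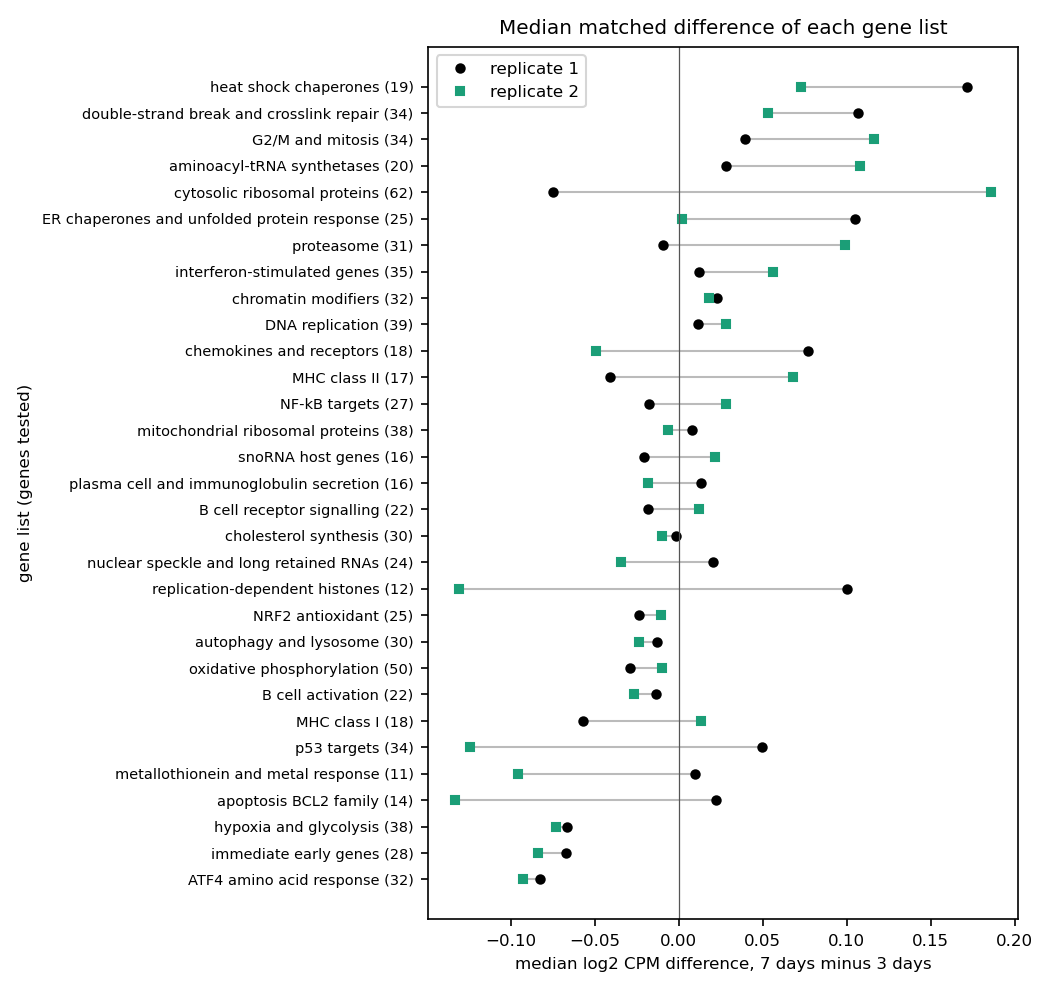
Median log2 CPM difference of 7 days minus 3 days (x axis) of each of 31 gene lists (y axis, genes tested in brackets), with black circles for replicate 1 and green squares for replicate 2. Heat shock chaperones (0.17 and 0.07) and double-strand break repair (0.11 and 0.05) are 0.05 or more in both pairs, the 3 lists at the foot are -0.05 or less in both, and ribosomal protein genes lie on opposite sides of 0.

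The comparison of 24 h with control has none of the late libraries in its fold changes, which the rule did not use. Its standard errors and p come from a fit of all 8 libraries, so they take in the spread of the late ones. It called 0 of 12536 genes (0%) with edgeR and 0 with DESeq2. In the edgeR fit 22 genes (0.175%) had an unadjusted p under 0.05, where 626.8 would be reached if no gene differed. Its p-values thus ran high, and its 0 calls cannot show that nothing differed at 24 h. In VEGFA, picked after its values were seen, replicate 1 of control lay near replicate 2 at 24 h (21.6 and 16.4 CPM). Replicate 2 of control lay near replicate 1 at 24 h (51.3 and 57.2 CPM). The fit had no block, and a crosswise match was not tested. None of the 26 members was among those 22, and their unadjusted p ran from 0.0955 to 0.983. The log2 fold changes of the 6 higher genes at 24 h ran from -0.26 to 0.89 with a median of -0.01, and those of the 20 lower genes from -0.81 to 0.43 with a median of 0.09. TCF7, for example, had a log2 fold change of 0.43 ± 0.43 (SE) at 24 h and PSEN2 one of -0.06 ± 0.27. The standard error at 24 h ran from 0.27 for PSEN2 to 0.67 for TBC1D26, whose late libraries were far apart. In an edgeR fit of the 4 early libraries alone, with no late library in the spread, 0 genes were called. There 108 genes (0.862%) had an unadjusted p under 0.05, again far under 626.8. None of the 26 members was among them, with unadjusted p from 0.0639 for MZF1 to 0.98 for TPT1-AS1. Standard errors there ran from 0.20 to 0.48, with 0.25 for TBC1D26.

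Set against control, the 6 higher genes had a median log2 fold change of -0.49 at 3 days and of 0.20 at 7 days, and 5 of 6 were closer to control at 7 days. The 20 lower genes had medians of 0.49 at 3 days and -0.38 at 7 days, and 10 of 20 were closer to control at 7 days. Over all genes the medians were 0.01 and 0.00, and 50.4% were closer to control at 7 days. These comparisons share the control libraries with each other and the late libraries with the rule, and no test is drawn from them. Genes on both sides of this can be named. MTRNR2L8 was at 0.74 at 3 days and 0.03 at 7 days against control, and TCF7 at -0.73 and -1.72.

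**Figure D5:**
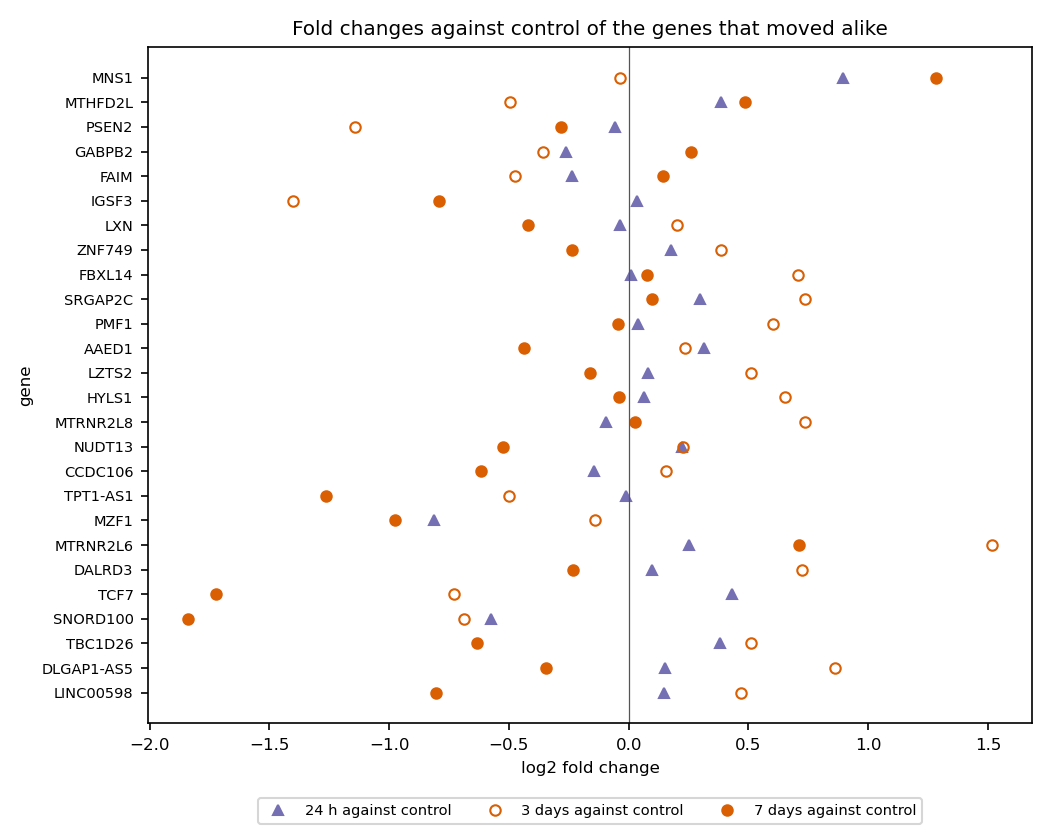
Log2 fold change against control (x axis) of each of the 26 genes that moved alike (y axis, ordered by the fold change of 7 days against 3 days), with purple triangles for 24 h, open circles for 3 days and filled circles for 7 days. SNORD100, TCF7 and TPT1-AS1 are farther below control at 7 days than at 3 days, while PMF1, HYLS1, FBXL14 and MTRNR2L8 lie near 0 at 7 days.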

How the data were processed

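RNA was sequenced from poly(A)-selected libraries. For each library the authors deposited raw read counts by gene symbol. Per the submitters' processing notes, the builds were GRCh37 and hg19. The same notes list R 3.2.3, DESeq2 1.8.1, Bowtie2, SAMtools and Trim Galore, with no role for each. How reads were counted, with which annotation and strand setting, is not given in the sources used here. Summary entries (5 a library) held 42.6% to 57.5% of reads and were left out. Among them, reads labelled ambiguous made up 0.608% to 1.12%, and reads with no unique alignment 4.98% to 5.99%.

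Genes were kept with filterByExpr of edgeR 4.0.16 (minimum count 10, minimum total 15). CPM and the matched differences were scaled with TMM over 8 libraries. Each edgeR fit was scaled with TMM over its own libraries, unless another scaling is named. Log2 CPM used a prior count of 2. The main test was a quasi-likelihood fit (glmQLFit, glmQLFTest) of the 4 late libraries with replicate as a block, and 24 h was tested against control over all 8. DESeq2 1.42.0 and limma-voom 3.58.1 were alternatives. On simulated counts the paired fit recovered 50% of genes changed 1.5-fold, 84% changed 2-fold and 94% changed 8-fold, with 2 false calls. The simulation took its spread from this same fit and gave both pairs the same change. It thus cannot show how the fit handles pairs that disagree. Replicate 1 minus replicate 2 correlated at 0.81 across genes between the late groups.

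Named genes are members of at least 2 CPM, the first 15 in each direction by the smaller matched difference, up to 3 genes of each list by smallest p, and the 2 genes nearest the limit on each side. MNS1, LXN, HYLS1, LZTS2, the other MTRNR2L copies, RPS12, SRGAP2 and TMEM38B were named outside this rule, as were called genes on no list (GPX4, SF3A2 and TGFB1). The members, lists and tests were chosen with earlier results of these data known. Lengths, overlaps and sequences come from GENCODE on GRCh38, a build other than that of the counts, so no genome coordinate is given (12135 tested genes matched, 96.8%).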

Additional observations from a re-analysis of the deposited data

How the results depend on the processing

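The paired fit called 7 genes, and 0 with no replicate block on 4 or on all 8 libraries, 0 with a replicate block for the late libraries in a fit of all 8, and 0 with DESeq2 and the block (smallest adjusted p 0.822). Without a late library that fit of all 8 rests on a single matched pair. The log2 fold change of GPX4 was then 0.11 without replicate 2 at 3 days and 1.17 without replicate 1 at 3 days. Removing the length and GC trend gave 30 calls (23 higher, 7 lower), and leaving out the MTRNR2L genes gave 4, as 2 of the called genes are then not tested and TGFB1 no longer passed. Both settings were chosen after seeing the data. With the trend removed, the members PSEN2 and TBC1D26 were called as well (adjusted p 0.0428 and 0.0437 in edgeR). Some of the 30 still differed mainly in replicate 2, such as EIF3I (0.09 and 0.64) and RPL39 (-0.10 and -0.66). Others differed in both pairs, such as AGBL5 (0.45 and 0.42). RLE scaling, upper-quartile scaling, limma-voom, no filter, a stricter filter and robust empirical Bayes, all with the block, gave 7 to 10, but robust empirical Bayes did not call GPX4 (adjusted p 0.316, EIF5B called in its place) and no filter did not call TGFB1 (0.104, TBC1D26 called in its place).

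The genes that moved alike depended on the limits. At 0.3 there were 39 higher and 52 lower, at 1 there were 1 and 2, with no counting limit 88 and 174, and at 3 counting standard errors 1 and 2, beside 46, 2, 207 and 2 of opposite sign. With 1 pair alone there were 154 to 192 higher and 232 to 339 lower. Scaling, prior count, filter and trend removal gave 4 to 9 higher and 15 to 26 lower. For 24 h against control each of 13 alternatives called 0, and none of them matched the early libraries crosswise. Over the named genes, 2453 alternative values were counted as unchanged, 87 lost the call, 8 gained it and 0 changed sign as called values. For genes not called in the main fit a change of sign was counted as unchanged, as was any value with no adjusted p. The 2453 values thus need not all have kept their direction. Depth limits the members, of which MTRNR2L8 alone had 100 or more reads in each of the 4 late libraries.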
